A study of Mus musculus with 10 samples.

Results

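The genes described here are 60 genes of mitosis, the kinetochore and the spindle, taken by symbol from a list and found as 60 of the 53465 genes of the deposited count table. RNA sequencing measured them in 10 libraries of mouse erythroblasts from the spleen, 11 days after 5-FU, a chemotherapeutic drug that kills dividing cells. The groups were Nrf2/miR-144/451-/- (lacking both Nrf2 and the miR-144/451 cluster, n = 3), miR-144/451-/- (lacking the cluster alone, n = 2), Nrf2-/- (lacking Nrf2 alone, n = 3) and wild type (n = 2). Each library is given as C57BL/6, every group had received 5-FU, and erythroblasts had been isolated with a Miltenyi Biotec kit. The labels state neither the age of the mice nor how the alleles were made, and they do not tie a library to an animal, so a p-value here reflects only how much these libraries varied, which may be technical.

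An erythroblast is a precursor of the red blood cell that divides several times while it fills with haemoglobin, and it leaves the cell cycle before it loses its nucleus. Entry into mitosis is driven by Cdk1 with its cyclins. The kinetochore is the protein assembly that ties each centromere to spindle microtubules, and the spindle checkpoint delays anaphase until all chromosomes are attached. Most of these genes are switched on together late in the cell cycle, through the CHR element and the CCAAT box in their promoters, which are read by complexes that hold MuvB, B-Myb (Mybl2), Foxm1 and NF-Y. The miR-144/451 cluster encodes microRNAs abundant in erythroid cells, and Nrf2 is a transcription factor of antioxidant genes.

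Library totals ran from 13087827 to 15131036 counts, and all 60 genes passed the filter on low counts, with no count under 233 in any library. Mir144 had 0 counts in each of the 5 libraries that lack the cluster, against 9 to 16 in Nrf2-/- and 12 and 17 in wild type, and Mir451a had 0 counts in every library. Nfe2l2, the Nrf2 gene, stood at 49.2 to 62.7 CPM in Nrf2/miR-144/451-/-, 81.7 and 86.1 in miR-144/451-/-, 46.1 to 55.6 in Nrf2-/- and 58.2 and 63.5 in wild type, and was not called in Nrf2-/- against wild type (adjusted p = 0.47). These counts cover the gene from end to end and do not show a deleted part, so they do not check the Nrf2 genotype. By Xist and Y-linked counts, Nrf2/miR-144/451-/- replicate 3 and both wild type libraries were female and the other 7 libraries male. A comparison of either single null with wild type is therefore also one of males with females.

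The promoters of 5 of the genes are shown because they hold the elements through which mitotic genes are known to be switched on together, and because the genes behaved differently. Cdk1, Ccnb2 and Cenpf fell in both comparisons that test loss of the cluster, and Cdc20 and Kif11 in neither. Each sequence runs from 150 bases before to 30 bases after an annotated transcription start, 5′ to 3′ on the gene's strand, from RefSeq's GRCm38.p6. Capitals mark the CHR element (TTTGAA, or TTCAAA on the other strand) and the CCAAT box (CCAAT, or ATTGG on the other strand).
Cdk1, the kinase that drives mitosis, chr10:69352883-69353062, minus strand: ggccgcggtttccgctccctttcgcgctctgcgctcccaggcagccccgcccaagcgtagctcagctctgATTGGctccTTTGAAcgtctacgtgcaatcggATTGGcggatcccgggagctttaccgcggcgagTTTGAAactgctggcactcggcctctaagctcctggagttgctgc
Ccnb2, cyclin B2, chr9:70421525-70421704, minus strand: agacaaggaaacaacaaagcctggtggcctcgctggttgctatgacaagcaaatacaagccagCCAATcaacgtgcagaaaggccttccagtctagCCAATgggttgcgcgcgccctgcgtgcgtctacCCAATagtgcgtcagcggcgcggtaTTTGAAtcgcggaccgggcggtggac
Cenpf, a kinetochore protein, chr1:189688057-189688236, minus strand: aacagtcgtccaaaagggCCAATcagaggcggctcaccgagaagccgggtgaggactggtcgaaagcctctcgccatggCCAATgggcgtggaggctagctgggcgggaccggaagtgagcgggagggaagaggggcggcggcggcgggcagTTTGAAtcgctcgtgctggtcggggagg
Cdc20, an activator of the anaphase-promoting complex, chr4:118437314-118437493, minus strand: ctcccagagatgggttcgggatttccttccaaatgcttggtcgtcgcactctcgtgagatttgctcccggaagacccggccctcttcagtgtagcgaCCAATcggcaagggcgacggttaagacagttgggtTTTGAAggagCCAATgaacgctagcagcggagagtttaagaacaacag
Kif11, the motor Eg5, chr19:37376232-37376411, plus strand: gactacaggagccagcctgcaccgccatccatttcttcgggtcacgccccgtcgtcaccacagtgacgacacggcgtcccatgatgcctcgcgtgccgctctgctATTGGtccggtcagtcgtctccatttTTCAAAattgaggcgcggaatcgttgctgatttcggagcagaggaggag
All 5 windows hold at least 1 copy of each element, and Cdc20 and Kif11 are the only 2 of the 5 genes lower in neither comparison with a CHR match in their window.

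The mature microRNAs of the deleted cluster are given with their seed, bases 2 to 8, in capitals, because a transcript that pairs with the seed in its 3′ UTR is a candidate for direct regulation. Both lie on the plus strand of chromosome 11 in GRCm38.p6, per RefSeq.
miR-144-3p, chr11:78073047-78073066: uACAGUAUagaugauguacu
miR-451a, chr11:78073186-78073207: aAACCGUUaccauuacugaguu

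Mitotic genes as a group were lower wherever the cluster was missing. Their summed level was 16966, 12938 and 14030 normalised CPM (each count relative to its library total, after edgeR's TMM correction) in Nrf2/miR-144/451-/- replicates 1 to 3, and 15095 and 14056 in miR-144/451-/- replicates 1 and 3. It was 32328, 28570 and 35017 in Nrf2-/- replicates 1 to 3, and 23586 and 28207 in wild type replicates 1 and 3. The 5 libraries without the cluster lay below the 5 with it, and the same was so without Mki67, the gene that contributed most: 8785 to 11195 in the cluster-deficient libraries against 15680 to 21655 in the others. In bulk RNA, fewer dividing cells and less mitotic RNA per cell cannot be told apart.

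**Figure D1:**
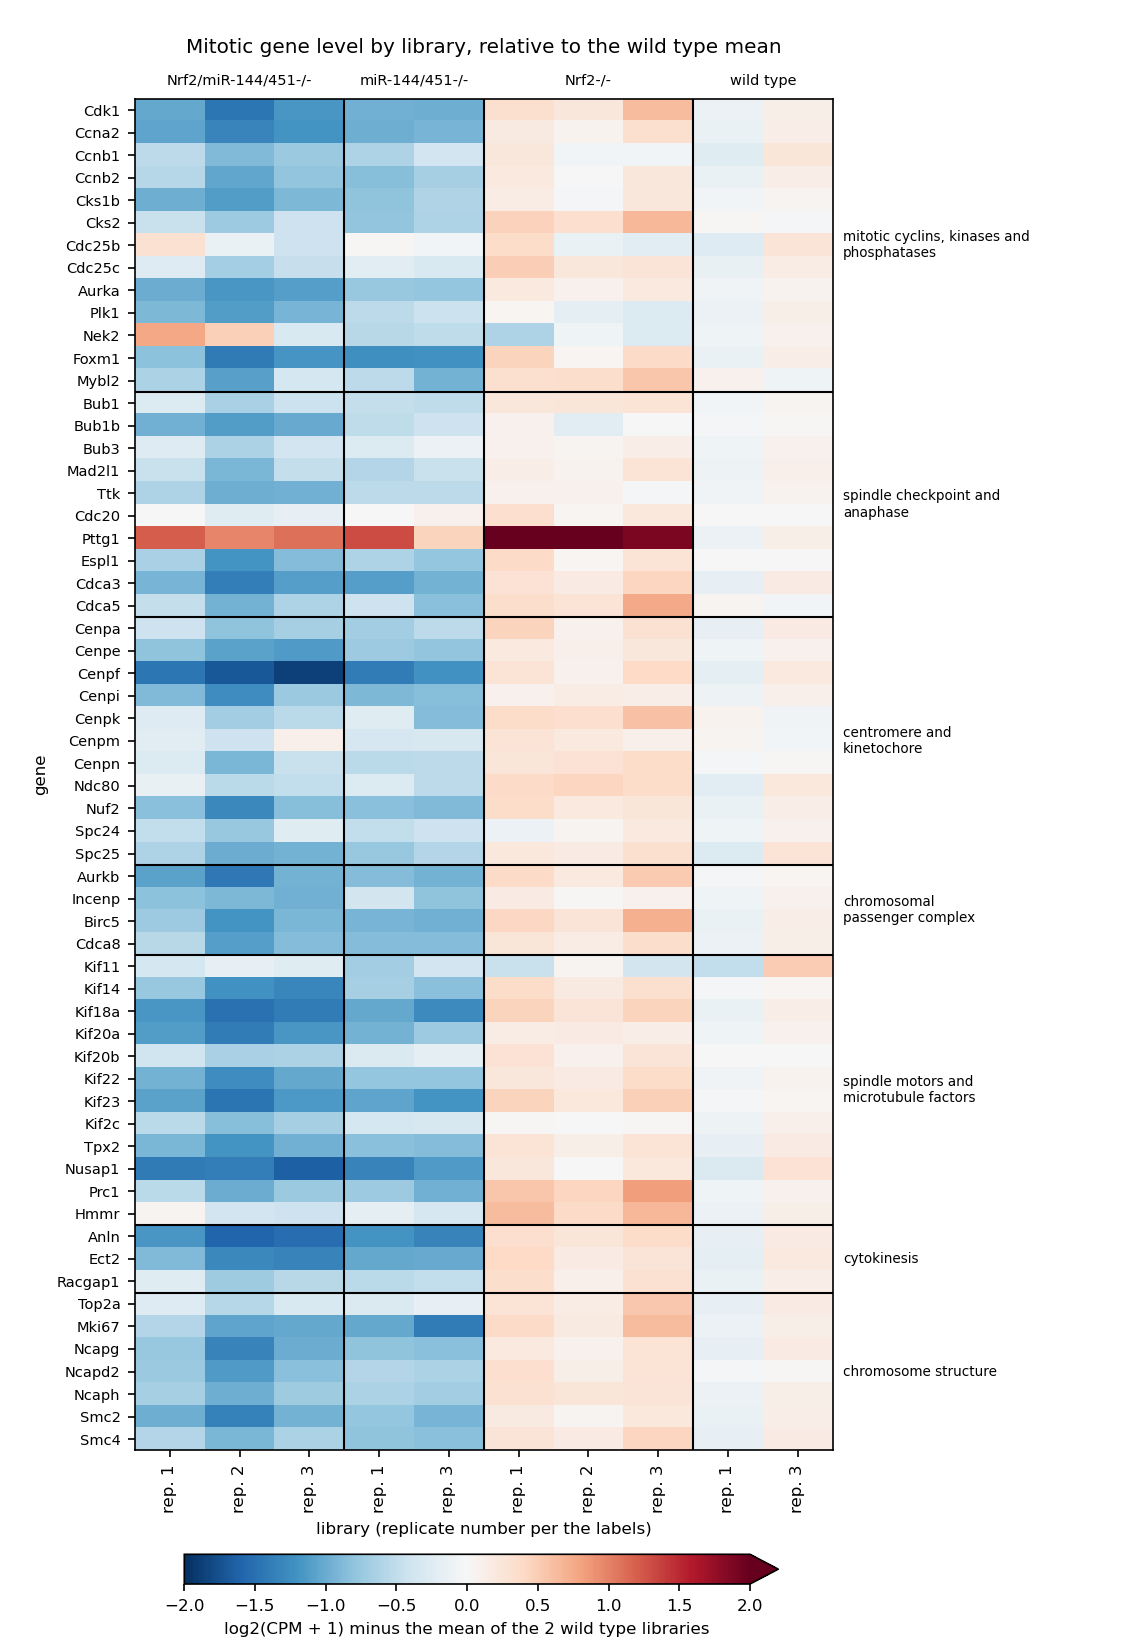
Level of each of the 60 genes (rows, grouped by role) in each of the 10 libraries (columns, grouped by genotype), as log2(CPM + 1) minus the mean of the 2 wild type libraries. Blue (lower) fills most rows of the 5 libraries without the cluster, Pttg1 is red in every library that is not wild type, and its values in Nrf2-/- replicates 1 and 2 run past the end of the colour scale.

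Where Nrf2 was absent (Nrf2/miR-144/451-/- against Nrf2-/-), 55 of the 60 genes fell and none rose, while 12.9% of all 14110 tested genes were called lower and 14.4% higher, by edgeR's quasi-likelihood test at a Benjamini-Hochberg adjusted p under 0.05. The median log2 fold change was -1.08 over the 60 genes and 0.02 over all tested genes. Of the 60, 33 were called and at least 2-fold lower, as were 1011 of the 14110 tested genes. For 56 of the 60 the 2 groups did not overlap, against 21.8% of tested genes not overlapping in that direction. With the 7 male libraries alone 56 of the 60 were called lower and 1, Nek2, higher, and leaving out any single library gave 54 to 56 lower. Nek2 was called higher in 6 of the 19 alternative runs.

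Where Nrf2 was present (miR-144/451-/- against wild type), 30 of the 60 genes fell and none rose, where 2.23% of tested genes were called lower and 2.4% higher. The median log2 fold change was -0.70 over the 60 genes, against 0.02 over all tested genes, and the groups did not overlap for 56 genes lower and 1 higher, with backgrounds of 22.8% and 24.2%. The count rests on few libraries: leaving out wild type replicate 3 gave 0 and wild type replicate 1 gave 11, and leaving out miR-144/451-/- replicate 1 gave 3 and replicate 3 gave 7. The median stayed between -0.78 and -0.65 whichever library was left out. With a term for sex none of the 60 was called and the median was -0.66, and with only these 2 genotypes in the fit 4 were called. The term for sex is set by Nrf2/miR-144/451-/- alone, the only group with both sexes (1 female and 2 male libraries). A term that rests on so few libraries cannot separate sex from genotype here. Pttg1, not called in the main fit, was called higher in 5 of the 18 alternative runs, among them DESeq2.

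The 2 comparisons share no library, although they share the fit's estimate of spread. All 30 genes called in the presence of Nrf2 were also called in its absence, 25 were called only in its absence, and 5 in neither. Over all tested genes 294 were called lower in both, 21 only in the presence of Nrf2 and 1531 only in its absence. For 58 of the 60 the log2 difference was more negative where Nrf2 was absent, as it was for 6984 of the 14110 tested genes. The test of that difference itself, the interaction term, called none of the 60 (background 0.0638% in either direction), with 14 at an unadjusted p under 0.05, as for 629 of the 14110 tested genes, and 1 called by DESeq2. Its median over the 60 genes was -0.39, against 0.01 over all tested genes, so a larger effect in the absence of Nrf2 was not established for any single gene.

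**Figure D2:**
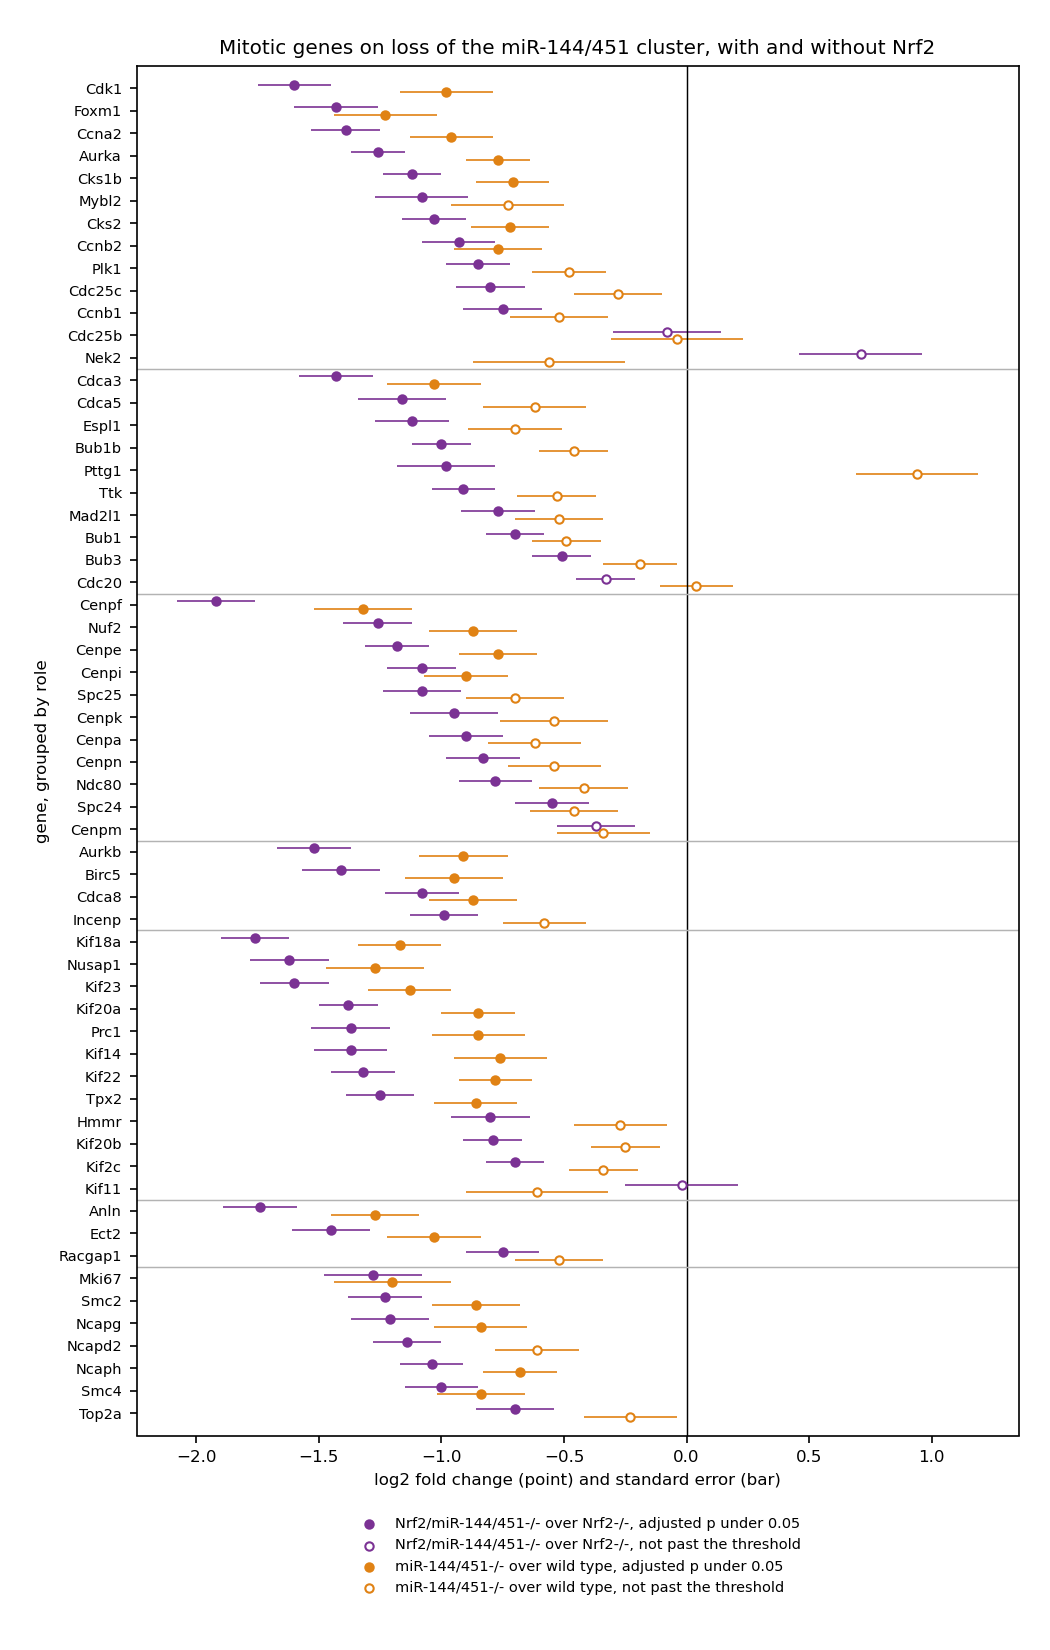
Log2 fold change with its standard error for each of the 60 genes on loss of the cluster, for Nrf2/miR-144/451-/- over Nrf2-/- (purple) and miR-144/451-/- over wild type (orange), with filled points past an adjusted p of 0.05. Filled purple points cover 55 genes and filled orange points 30, and Pttg1 is the 1 gene with an orange point well to the right of 0.

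Of the 13 mitotic cyclins, kinases, phosphatases and their transcription factors, 11 fell in Nrf2/miR-144/451-/- against Nrf2-/- and 7 in miR-144/451-/- against wild type. Cdk1 stood at 127, 94.8 and 115 CPM in Nrf2/miR-144/451-/-, 132 and 131 in miR-144/451-/-, 322, 303 and 400 in Nrf2-/-, and 237 and 281 in wild type. Every cluster-deficient library was below every library with the cluster. Cdk1 was 3.04-fold lower without Nrf2 (log2 fold change -1.60 ± 0.15 SE, adjusted p = 8.39e-05) and 1.97-fold lower with it (-0.98 ± 0.19, adjusted p = 0.0161). Aurka, the kinase of the centrosome and spindle poles, stood at 99.4, 88.8 and 92.9 CPM in Nrf2/miR-144/451-/-, 117 and 117 in miR-144/451-/-, 229, 213 and 230 in Nrf2-/-, and 191 and 210 in wild type. Its libraries separated in the same way, with log2 fold changes of -1.26 ± 0.11 (adjusted p = 5.32e-05) without Nrf2 and -0.77 ± 0.13 (adjusted p = 0.00976) with it. Ccna2, cyclin A2, was at 343, 287 and 312 CPM in Nrf2/miR-144/451-/- and 365 and 378 in miR-144/451-/-, against 814, 752 and 896 in Nrf2-/- and 652 and 792 in wild type. It fell by 1.39 and by 0.96 on the log2 scale, without and with Nrf2. Foxm1 and Mybl2, transcription factors of the mitotic programme, stood on opposite sides of the threshold where Nrf2 was present: Foxm1 fell in both comparisons (log2 fold changes -1.43 and -1.23), and Mybl2 fell without Nrf2 (-1.08) and was at -0.73 with it (adjusted p = 0.104).

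Among the 10 genes of the spindle checkpoint and anaphase, 9 fell in Nrf2/miR-144/451-/- against Nrf2-/-, and 1, Cdca3, fell in miR-144/451-/- against wild type. Cdca3, a regulator of mitotic entry, was at 198, 145 and 176 CPM in Nrf2/miR-144/451-/- and 176 and 197 in miR-144/451-/-, against 464, 427 and 511 in Nrf2-/- and 338 and 425 in wild type. It was 2.70-fold lower without Nrf2 (adjusted p = 0.000142) and 2.05-fold lower with it (adjusted p = 0.0126). Bub1b, the checkpoint kinase-like protein BubR1, was at 107, 96.1 and 103 CPM in Nrf2/miR-144/451-/- and 146 and 157 in miR-144/451-/-, against 220, 179 and 210 in Nrf2-/- and 204 and 213 in wild type. The groups did not overlap in either comparison, but Bub1b passed the threshold only without Nrf2 (log2 fold change -1.0 ± 0.12, adjusted p = 0.000226, against -0.46 ± 0.14, adjusted p = 0.0981, with Nrf2). Espl1, the separase that cuts cohesin, was at 192, 131 and 164 CPM in Nrf2/miR-144/451-/- and 195 and 176 in miR-144/451-/-, against 390, 310 and 362 in Nrf2-/- and 300 and 300 in wild type. It fell by 1.12 on the log2 scale without Nrf2, and with Nrf2 its log2 fold change of -0.70 missed the threshold (adjusted p = 0.0617). The checkpoint proteins Bub1, Bub3 and Mad2l1 and the checkpoint kinase Ttk (Mps1) also fell without Nrf2, with log2 fold changes of -0.70, -0.51, -0.77 and -0.91, as did Cdca5, the cohesin protector sororin (-1.16).

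Of 11 centromere and kinetochore genes, 10 fell on loss of the cluster without Nrf2 and 4 with it. Cenpf, a large protein of the outer kinetochore, had the lowest log2 fold change of the 60 genes in both comparisons. It stood at 263, 222 and 197 CPM in Nrf2/miR-144/451-/-, 272 and 311 in miR-144/451-/-, 870, 767 and 953 in Nrf2-/-, and 630 and 828 in wild type, with a clear gap between the libraries without and with the cluster. It was 3.79-fold lower without Nrf2 (log2 fold change -1.92 ± 0.16, adjusted p = 5.32e-05) and 2.50-fold lower with it (-1.32 ± 0.20, adjusted p = 0.00672). Cenpe, the kinetochore motor that carries chromosomes to the spindle equator, was at 263, 218 and 211 CPM in Nrf2/miR-144/451-/- and 277 and 266 in miR-144/451-/-, against 529, 493 and 542 in Nrf2-/- and 434 and 489 in wild type. Nuf2, a subunit of the Ndc80 complex that grips microtubules, was at 85, 61.7 and 84.3 CPM in Nrf2/miR-144/451-/- and 85.4 and 81.8 in miR-144/451-/-, against 197, 175 and 180 in Nrf2-/- and 139 and 167 in wild type. Both fell in both comparisons, by 1.18 and 0.77 for Cenpe and by 1.26 and 0.87 for Nuf2 on the log2 scale, without and with Nrf2. The partners of Nuf2 in the Ndc80 complex, Ndc80, Spc24 and Spc25, fell without Nrf2 (log2 fold changes -0.78, -0.55 and -1.08), and with Nrf2 their values of -0.42, -0.46 and -0.70 did not pass the threshold. Cenpa, the histone variant that marks the centromere, had log2 fold changes of -0.90 without Nrf2 (adjusted p = 0.00176) and -0.62 with it (adjusted p = 0.0929).

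The chromosomal passenger complex corrects faulty attachments and guides cytokinesis. All 4 of its genes fell in Nrf2/miR-144/451-/- against Nrf2-/-, and 3 fell in miR-144/451-/- against wild type. Aurkb, its kinase, stood at 93.7, 72.8 and 102 CPM in Nrf2/miR-144/451-/-, 108 and 103 in miR-144/451-/-, 259, 227 and 285 in Nrf2-/-, and 193 and 203 in wild type. Birc5, the survivin subunit, stood at 253, 183 and 220 CPM in Nrf2/miR-144/451-/-, 220 and 215 in miR-144/451-/-, 555, 502 and 682 in Nrf2-/-, and 382 and 457 in wild type. Aurkb was 2.87-fold lower without Nrf2 (adjusted p = 8.39e-05) and 1.88-fold lower with it (adjusted p = 0.0174), and Birc5 was 2.65-fold lower (adjusted p = 0.000208) and 1.93-fold lower (adjusted p = 0.0228). Incenp, the scaffold, was at 280, 266 and 255 CPM in Nrf2/miR-144/451-/- and 383 and 283 in miR-144/451-/-, against 556, 506 and 528 in Nrf2-/- and 468 and 527 in wild type. Its groups did not overlap in either comparison, yet it passed the threshold only without Nrf2 (log2 fold changes -0.99, adjusted p = 0.000565, and -0.58, adjusted p = 0.0795). Cdca8, the borealin subunit, fell in both (-1.08 and -0.87).

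Spindle motors and microtubule factors numbered 12, of which 11 fell without Nrf2 and 8 with it. Kif18a, a kinesin that dampens chromosome movement at the spindle equator, stood at 61.9, 49 and 52.8 CPM in Nrf2/miR-144/451-/-, 68.8 and 57.4 in miR-144/451-/-, 193, 169 and 191 in Nrf2-/-, and 128 and 155 in wild type. Its log2 fold changes were -1.76 ± 0.14 without Nrf2 (adjusted p = 4.22e-05) and -1.17 ± 0.17 with it (adjusted p = 0.00547), with no overlap. Kif23, the motor of the centralspindlin complex, was at 148, 112 and 139 CPM in Nrf2/miR-144/451-/- and 149 and 135 in miR-144/451-/-, against 424, 358 and 429 in Nrf2-/- and 302 and 319 in wild type. Kif20a, a motor of late mitosis, was at 62.4, 51.2 and 60.6 CPM in Nrf2/miR-144/451-/- and 70 and 81.6 in miR-144/451-/-, against 151, 153 and 149 in Nrf2-/- and 128 and 145 in wild type. Kif23 fell by 1.60 and 1.13, and Kif20a by 1.38 and 0.85, on the log2 scale without and with Nrf2. Of the exon bases of Kif20a, 29.3% are also exon of Cdc23 on the opposite strand, and whether the counting used strand is not given in the sources used here, so its reads may in part be those of Cdc23. Nusap1 and Tpx2, microtubule proteins of the spindle, also fell in both comparisons (log2 fold changes -1.62 and -1.27 for Nusap1, -1.25 and -0.86 for Tpx2), while Kif20b, Kif2c and Hmmr fell without Nrf2 (-0.79, -0.70 and -0.80) and with it did not pass (-0.25, -0.34 and -0.27).

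Cytokinesis, the final splitting of the cell, was represented by 3 genes, all lower without Nrf2 and 2 of them with it. Anln, the actin-binding anillin of the contractile ring, stood at 138, 103 and 107 CPM in Nrf2/miR-144/451-/-, 136 and 123 in miR-144/451-/-, 394, 366 and 402 in Nrf2-/-, and 276 and 349 in wild type. Ect2, which activates RhoA at the cleavage site, stood at 140, 106 and 102 CPM in Nrf2/miR-144/451-/-, 128 and 129 in miR-144/451-/-, 345, 292 and 313 in Nrf2-/-, and 227 and 300 in wild type. For both genes each cluster-deficient library lay below each library with the cluster. Anln was 3.33-fold lower without Nrf2 (adjusted p = 5.32e-05) and 2.42-fold lower with it (adjusted p = 0.00525), and Ect2 was 2.73-fold lower (adjusted p = 0.000153) and 2.04-fold lower (adjusted p = 0.0145). Racgap1, the partner of Kif23 in centralspindlin, was at 297, 215 and 240 CPM in Nrf2/miR-144/451-/- and 243 and 251 in miR-144/451-/-, against 450, 378 and 439 in Nrf2-/- and 324 and 385 in wild type. It fell without Nrf2 (log2 fold change -0.75, adjusted p = 0.00389) and did not pass with it (-0.52, adjusted p = 0.141), although its groups did not overlap there.

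Chromosome structure genes, which fold and coat the mitotic chromosome, all fell without Nrf2 (7 of 7), and 5 fell with it. Smc2, a core subunit of both condensins, was at 327, 251 and 334 CPM in Nrf2/miR-144/451-/- and 372 and 336 in miR-144/451-/-, against 727, 665 and 740 in Nrf2-/- and 584 and 704 in wild type. Ncaph, a condensin I subunit, was at 145, 115 and 140 CPM in Nrf2/miR-144/451-/- and 147 and 141 in miR-144/451-/-, against 283, 270 and 272 in Nrf2-/- and 210 and 250 in wild type. Both fell in both comparisons (log2 fold changes -1.23 and -0.86 for Smc2, -1.04 and -0.68 for Ncaph). Ncapd2, another condensin I subunit, was at 483, 365 and 453 CPM in Nrf2/miR-144/451-/- and 538 and 522 in miR-144/451-/-, against 1020, 872 and 975 in Nrf2-/- and 799 and 817 in wild type. It fell without Nrf2 (-1.14 ± 0.14, adjusted p = 0.000279), and with it the log2 fold change of -0.61 ± 0.17 missed the threshold (adjusted p = 0.069). Mki67, the Ki-67 protein that coats mitotic chromosomes and marks proliferating cells, was 2.43-fold lower without Nrf2 (adjusted p = 0.00103) and 2.30-fold lower with it (adjusted p = 0.0196). Top2a, the topoisomerase that untangles sister chromatids, had a smaller fall without Nrf2 (log2 fold change -0.70, adjusted p = 0.00758) and no call with it (-0.23, adjusted p = 0.586).

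Cdc25b, Nek2, Cdc20, Cenpm and Kif11 were called lower in neither comparison. Cdc25b, a phosphatase that activates Cdk1, was at 930, 690 and 569 CPM in Nrf2/miR-144/451-/- and 765 and 727 in miR-144/451-/-, against 976, 690 and 651 in Nrf2-/- and 628 and 907 in wild type. Kif11, the motor that pushes spindle poles apart, was at 147, 167 and 159 CPM in Nrf2/miR-144/451-/- and 116 and 143 in miR-144/451-/-, against 138, 195 and 145 in Nrf2-/- and 132 and 265 in wild type. All 4 groups overlapped for Cdc25b, and the cluster-loss groups overlapped in both comparisons for Kif11. Log2 fold changes without and with Nrf2 were -0.08 ± 0.22 and -0.04 ± 0.27 for Cdc25b, and -0.02 ± 0.23 and -0.61 ± 0.29 for Kif11.

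Nek2, a kinase that separates centrosomes, was at 47.5, 38.4 and 21.9 CPM in Nrf2/miR-144/451-/- and 18.2 and 19 in miR-144/451-/-, against 17.6, 25.8 and 22.4 in Nrf2-/- and 25.7 and 29.3 in wild type. Replicates 1 and 2 of Nrf2/miR-144/451-/- were the highest of the 10 libraries, while replicate 3 lay within the range of Nrf2-/-. The log2 fold change of 0.71 ± 0.25 without Nrf2 missed the threshold (adjusted p = 0.0553), as did -0.56 ± 0.31 with it (adjusted p = 0.379). Cdc20, the activator of the anaphase-promoting complex at anaphase, was at 203, 171 and 181 CPM in Nrf2/miR-144/451-/- and 202 and 214 in miR-144/451-/-, against 257, 208 and 234 in Nrf2-/- and 200 and 204 in wild type. Its groups did not overlap without Nrf2, but the log2 fold change of -0.33 ± 0.12 did not pass (adjusted p = 0.0643), and with Nrf2 it was 0.04 ± 0.15. Cenpm, an inner kinetochore subunit, was at 20.3, 17.7 and 25.7 CPM in Nrf2/miR-144/451-/- and 18.9 and 19 in miR-144/451-/-, against 29.2, 27.6 and 25.7 in Nrf2-/- and 24.9 and 23 in wild type. Its log2 fold changes of -0.37 ± 0.16 and -0.34 ± 0.19 had adjusted p-values of 0.101 and 0.397.

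**Figure D3:**
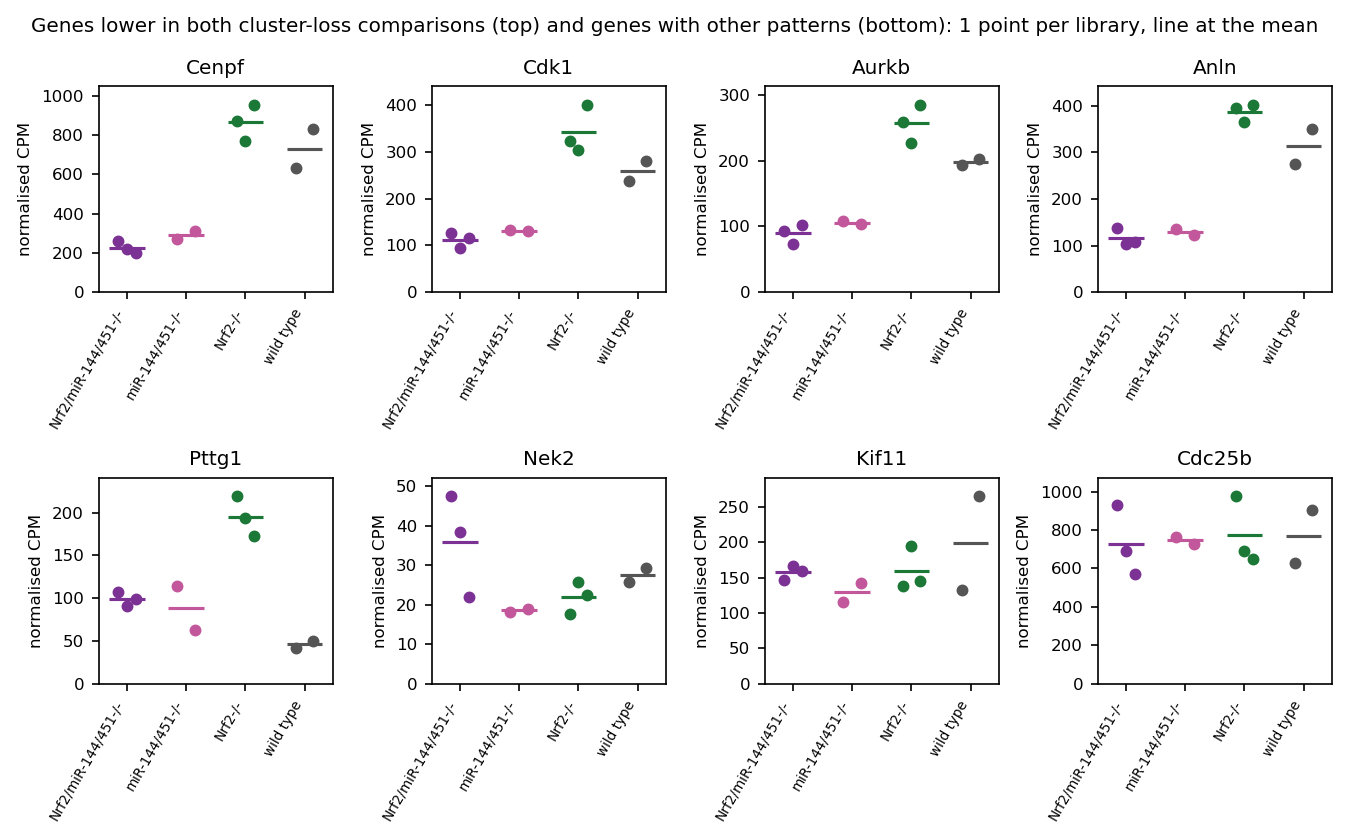
Normalised CPM in each library (points) and the group mean (line) for 4 genes that fell in both cluster-loss comparisons (Cenpf, Cdk1, Aurkb and Anln) and 4 that did not (Pttg1, Nek2, Kif11 and Cdc25b). In the top row the libraries without the cluster sit below those with it, while Pttg1 is lowest in wild type and Nek2 highest in 2 of the 3 Nrf2/miR-144/451-/- libraries.

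Pttg1, the securin that holds separase inactive until anaphase, followed an order of its own. It was at 107, 90.4 and 99.4 CPM in Nrf2/miR-144/451-/-, 114 and 62.3 in miR-144/451-/-, 219, 194 and 172 in Nrf2-/-, and 41.8 and 49.9 in wild type. Both wild type libraries were below all 8 others, and the 3 Nrf2-/- libraries were above all others. Pttg1 rose 4.25-fold in Nrf2-/- against wild type (log2 fold change 2.09 ± 0.24, adjusted p = 0.00374) and 2.16-fold in Nrf2/miR-144/451-/- against wild type (1.11 ± 0.23, adjusted p = 0.00956). Both calls were lost with a term for sex, without wild type replicate 1 and without wild type replicate 3, with adjusted p-values of up to 0.235 for Nrf2-/- and 0.106 for Nrf2/miR-144/451-/-. It fell in Nrf2/miR-144/451-/- against Nrf2-/- (-0.98 ± 0.20, adjusted p = 0.00486), while in miR-144/451-/- against wild type its log2 fold change of 0.94 ± 0.25 missed the threshold (adjusted p = 0.0562). The wild type libraries are both female, and the only other female library, Nrf2/miR-144/451-/- replicate 3, stood at 99.4 CPM, between the 2 male libraries of its group. This is 1 library of another genotype, and for either single null against wild type sex and genotype cannot be told apart.

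Loss of Nrf2 where the cluster was present (Nrf2-/- against wild type) called Pttg1 alone among the 60 genes, as higher, where 0.128% of tested genes were called higher and 0.0638% lower. The median log2 fold change over the 60 genes was 0.25, against -0.02 over all tested genes. Positive values were found for 56 of the 60, and for 6758 of the 14110 tested genes. For 33 genes every Nrf2-/- library was above both wild type libraries, with a background of 15.7%. In all 12 of the 60 had an unadjusted p under 0.05, as did 1707 of the 14110 tested genes, and DESeq2 also called 1 of the 60.

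Nrf2/miR-144/451-/- against miR-144/451-/- asks for the effect of Nrf2 loss where the cluster was absent, and none of the 60 genes was called (background 0.0638% in either direction). By edgeR 8 of them had an unadjusted p under 0.05, as did 1506 of the 14110 tested genes, and DESeq2 called 1 of the 60, as lower. The median log2 fold change was -0.15 over the 60 genes and -0.02 over all tested genes. Groups did not overlap for 19 genes lower and 2 higher, with backgrounds of 12.4% and 12.1%. The lowest log2 fold change of the 60 was that of Bub1b, at -0.57 ± 0.13 (adjusted p = 0.2). Positive values were found for 18 of the 60, and for 6713 of the 14110 tested genes.

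Compared with wild type, Nrf2/miR-144/451-/- had 45 of the 60 genes lower and 1, Pttg1, higher, where 8.95% of tested genes were called lower and 8.26% higher. The median log2 fold change was -0.87, against -0.02 over all tested genes. This comparison shares its libraries with those above and is no separate evidence. The count of genes called lower was 22 with a term for sex and 29 without wild type replicate 3, and the call for Pttg1 was lost with a term for sex and without either wild type library.

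Genes of neighbouring steps of cell division were read from the same fits. Without Nrf2 12.9% of all tested genes were called lower and 14.4% higher, and with it 2.23% and 2.4%. Of 29 other kinetochore and centromere genes, 22 fell in Nrf2/miR-144/451-/- against Nrf2-/- and 12 in miR-144/451-/- against wild type. Cenpl, an inner kinetochore subunit, averaged 43.7 ± 5.38 CPM in Nrf2/miR-144/451-/- and 170 ± 26.5 CPM in Nrf2-/- (SD, n = 3 each), and Mis12, which links inner and outer kinetochore, averaged 31.6 ± 5.71 and 84.2 ± 2.83 CPM in the same groups. Sgo2a, a protector of centromeric cohesion, was at 11.7 ± 2.69 CPM in Nrf2/miR-144/451-/- and 37.3 ± 2.80 CPM in Nrf2-/-. Of 27 centrosome and other spindle genes, 20 and 9 fell in those comparisons, led by Haus8 of the augmin complex (log2 fold changes -1.52 and -1.57) and the kinesins Kifc1 (-1.49 and -1.0) and Kif18b (-1.48 and -0.92).

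The anaphase-promoting complex, the ubiquitin ligase that ends mitosis, is listed with 18 genes. Of these, 5 fell and 2 rose without Nrf2, where 12.9% of all tested genes were called lower and 14.4% higher, and 4 fell with it, with medians of -0.02 and -0.01. The genes that led the fall were its inhibitor Fbxo5 (log2 fold changes -1.88 and -1.24) and its ubiquitin-conjugating enzymes Ube2s (-1.28 and -1.27) and Ube2c (-1.34 and -1.23). Its subunits Cdc26 and Cdc16 rose without Nrf2 (0.40 ± 0.13, adjusted p = 0.037, and 0.39 ± 0.13, adjusted p = 0.0458) and had values of 0.27 and 0.22, not past the threshold, with it.

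Of 15 cohesin and condensin II genes, 6 fell and 1 rose without Nrf2, and 4 fell with it. The shares over all tested genes were 12.9% lower and 14.4% higher without Nrf2, and 2.23% lower with it. Those that fell in both were led by the cohesin acetyltransferase Esco2 (log2 fold changes -1.83 and -1.32) and the condensin II subunits Ncapd3 (-1.12 and -0.72) and Ncapg2 (-1.42 and -0.98). Mau2, part of the cohesin loader, averaged 339 ± 10.7 CPM in Nrf2/miR-144/451-/- and 142 ± 3.23 CPM in Nrf2-/- (SD, n = 3 each) and was the gene that rose. Of 17 other kinases and phosphatases of mitotic entry and exit, 8 fell and 2 rose (11.8%, against 14.4% of all tested genes) without Nrf2, and 3 fell with it. Ccnf, cyclin F, and Haspin, a histone kinase, fell in both (-1.92 and -1.37 for Ccnf, -1.72 and -1.01 for Haspin), and Mastl, the Greatwall kinase, fell without Nrf2 (-1.35). The phosphatase subunits Ppp2r2a and Ppp2ca, which oppose Cdk1, rose without Nrf2 (0.64 ± 0.20, adjusted p = 0.0329, and 0.48 ± 0.15, adjusted p = 0.0338).

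DNA replication genes moved with the mitotic genes where Nrf2 was absent, with 18 of 30 lower and a median log2 fold change of -0.62, and 2 of 30 fell where it was present (median -0.30). Orc1, of the origin recognition complex, fell in both (-1.59 and -1.17), and Gins3 and Cdc45, parts of the replicative helicase, fell without Nrf2 (-1.02 and -0.75). Of the 11 genes of the DREAM and MuvB complexes, which repress and activate cell cycle promoters, 6 fell and 2 rose without Nrf2, and 1 rose with it. Among all tested genes 12.9% were called lower and 14.4% higher without Nrf2, and 2.23% lower and 2.4% higher with it. Rbl2, the pocket protein p130 of the repressing complex in resting cells, rose in both comparisons (log2 fold changes 1.18 ± 0.16, adjusted p = 0.000415, and 1.06 ± 0.19, adjusted p = 0.0119). It averaged 70 ± 13 CPM in Nrf2/miR-144/451-/- and 30.8 ± 0.51 CPM in Nrf2-/-. Lin37 rose without Nrf2 (0.74), and E2f4 and Lin9 fell (-0.74 and -0.78).

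Cell cycle inhibitors did not move one way. Of 11 listed, 10 were tested, and 3 fell and 2 rose without Nrf2, while 2 fell with it. Beside these counts, 12.9% of all tested genes were called lower and 14.4% higher without Nrf2, and 2.23% lower with it. Cdkn2c, the Cdk4 and Cdk6 inhibitor p18, averaged 72.4 ± 11.8 CPM in Nrf2/miR-144/451-/- and 283 ± 54.1 CPM in Nrf2-/- (SD, n = 3 each), and had log2 fold changes of -1.97 without Nrf2 and -1.60 with it. Btg2, an antiproliferative gene, also fell in both (-1.10 and -0.80), and Cdkn2d, the inhibitor p19, fell without Nrf2 (-0.87). Ccng1 and Ccng2, unconventional cyclins linked to cell cycle arrest, rose without Nrf2 (1.33 ± 0.34, adjusted p = 0.0192, and 0.87 ± 0.28, adjusted p = 0.0455).

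**Figure D4:**
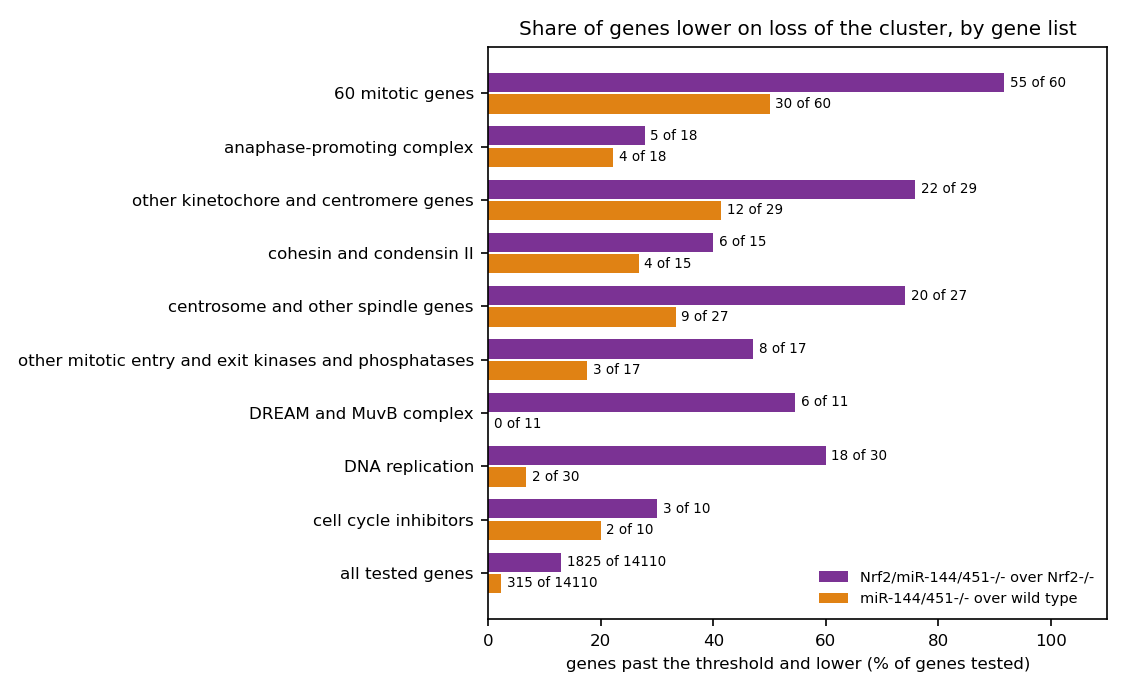
Percentage of tested genes called lower in Nrf2/miR-144/451-/- against Nrf2-/- (purple) and in miR-144/451-/- against wild type (orange), for the 60 mitotic genes, 8 lists of neighbouring steps and all tested genes, with the counts beside the bars. The 60 genes have 55 and 30 called lower, and all 14110 tested genes 1825 and 315.

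Markers of other spleen cells also differed between the groups. The summed level of 11 B cell markers was 135 to 246 CPM in Nrf2/miR-144/451-/-, 289 to 643 in miR-144/451-/-, 552 to 707 in Nrf2-/- and 783 to 1240 in wild type. All 11 were called lower in Nrf2/miR-144/451-/- against Nrf2-/-, and edgeR called none in miR-144/451-/- against wild type, where 8 had an unadjusted p under 0.05 and the median log2 fold change was -1.05. The sum of 12 macrophage markers was 96.9 to 424, 171 to 313, 382 to 1360 and 228 to 235 CPM in Nrf2/miR-144/451-/-, miR-144/451-/-, Nrf2-/- and wild type, and no listed marker of any type was at 0 throughout a group. The part of these cells in the mitotic result was not tested.

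Erythroid markers were the most abundant of the marker lists, and their sum was carried by the globins Hba-a1 and Hbb-bt and the anion exchanger Slc4a1. The 14 erythroid markers summed to 89000 to 107000 CPM in Nrf2/miR-144/451-/-, 63200 to 71500 in miR-144/451-/-, 86800 to 102000 in Nrf2-/- and 69900 to 99100 in wild type. Of the 14, 5 fell without Nrf2 and 1, Klf1, with it, with medians of -0.43 and -0.53, where 12.9% and 2.23% of tested genes were called lower. Log2 fold changes were negative for 11 of the 14 without Nrf2 (9 at an unadjusted p under 0.05) and for all 14 with it (10 at an unadjusted p under 0.05). Klf1, a transcription factor of red cell genes, separated the libraries as the mitotic genes did, with 210 to 299 CPM in the libraries without the cluster against 430 to 588 in those with it. So did the surface protein gene Kel (953 to 1510 against 1600 to 2280 CPM), the erythropoietin receptor gene Epor (213 to 251 against 280 to 353) and the membrane skeleton gene Epb42 (1140 to 1520 against 1580 to 2470). Other markers of the list did not follow. Without Nrf2 the 3 positive log2 fold changes were those of Hbb-bt (0.52, groups not overlapping, adjusted p = 0.0646), Hba-a1 (0.32) and Alas2 (0.02). Gata1 was at -0.11 in both comparisons, with overlapping groups. Klf1, Kel, Epor and Epb42 were singled out after their values were seen, and the part of erythroid composition in the mitotic result was not tested. None of the 8 markers of early erythroid progenitors was called in either comparison (medians 0.30 and 0.35). Of the remaining lists without Nrf2, 1 of 11 T cell, 1 of 9 NK cell, 1 of 12 macrophage, 1 of 10 megakaryocyte and 4 of 9 germinal centre and plasma cell markers fell, 2 megakaryocyte and 1 germinal centre and plasma cell marker rose, and none of 13 neutrophil markers was called. Over all tested genes 12.9% were called lower and 14.4% higher without Nrf2. All 9 NK cell markers (median log2 fold change -1.52, 7 at an unadjusted p under 0.05), all 12 macrophage markers (-1.46, 8) and all 11 T cell markers (-0.87, 2) had negative values there, beside a median of -1.86 for the B cell markers and -1.08 for the 60 mitotic genes. The medians were -0.98 for germinal centre and plasma cell, 0.71 for megakaryocyte and 0.36 for neutrophil markers. With Nrf2 edgeR called no marker of these lists, with 1 T cell, 1 NK cell, 2 megakaryocyte and 2 germinal centre and plasma cell markers at an unadjusted p under 0.05. The share of counts from mitochondrial genes was 1.22% to 1.41% in Nrf2/miR-144/451-/-, 1.58% and 1.80% in miR-144/451-/-, 0.84% to 1.02% in Nrf2-/- and 1.13% in both wild type libraries, and its part in the mitotic result was not tested.

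RefSeq promoter windows, from 250 bases before to 50 bases after a transcription start, were matched for 51 of the 60 genes, in 56 windows. Those without an entry were Foxm1, Spc24, Aurkb, Ccna2, Smc4, Kif20a, Cdc25c, Tpx2 and Incenp. The CHR element (TTTGAA, both strands) was in 37 of the 56 windows (66.1%), against 17.9% of all 32851 windows and 12.2% of those of the other tested genes. CCAAT (both strands) was in 76.8% of the windows, against 37.4% and 37.7%, and both were in 57.1%, against 6.95% and 4.82%. The letters TTTGGCGC or TTTCCCGC, of the E2F type, were in 4 windows (7.14%), against 1.56% of all and 2.88% of those of the other tested genes, and TGACNNNGC, the core of the antioxidant response element through which Nrf2 acts, was in 21.4%, against 12.4% and 14.5% (both strands each). CHR matches lay close to the transcription start, at a median position of -15, and CCAAT matches further upstream, at -65. Windows of 1 gene with 2 annotated starts can overlap and hold the same match.

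**Figure D5:**
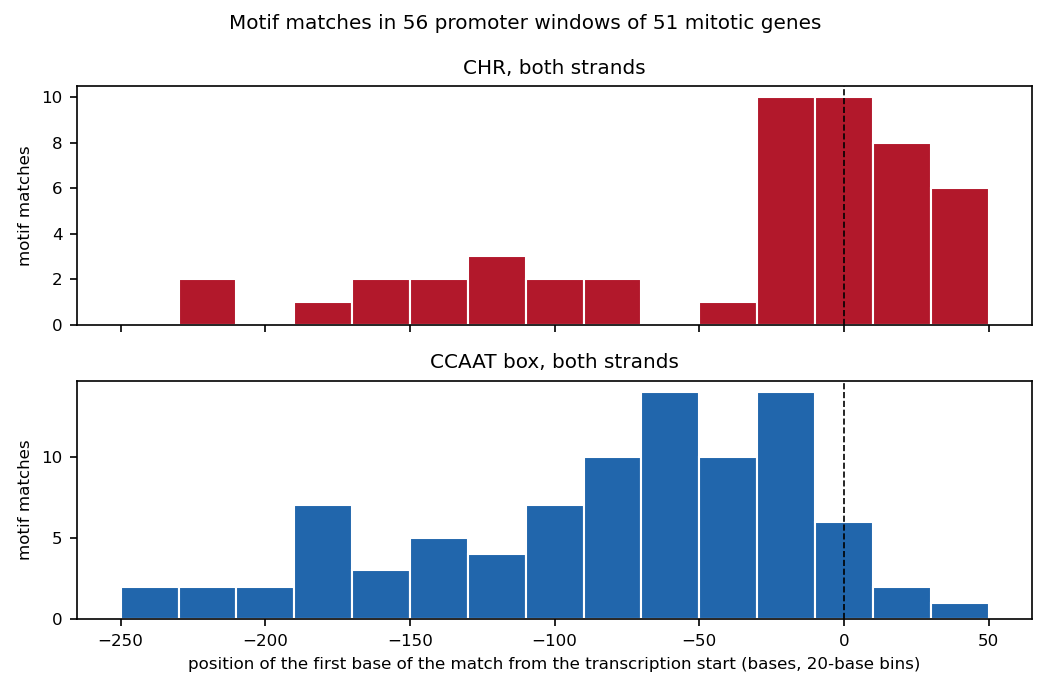
Positions of CHR and CCAAT matches, on both strands, in the 56 promoter windows, counted from the transcription start in bins of 20 bases. The 49 CHR matches gather around the start (median -15) and the 89 CCAAT matches upstream of it (median -65).

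Among the 51 genes with a window, median differences were close with and without these letters, which was not tested. The median log2 fold change in Nrf2/miR-144/451-/- against Nrf2-/- was -1.10 for the 34 genes with a CHR match and -1.03 for the 17 without. In miR-144/451-/- against wild type it was -0.70 and -0.68. The 38 genes with a CCAAT match had medians of -1.06 without Nrf2 and -0.70 with it. The 13 others had -1.08 and -0.68. The split by both elements together was wider, and it was not tested. For the 29 genes with both the medians were -1.12 without Nrf2 and -0.71 with it, against -1.0 and -0.59 for the 22 others. Of the 5 genes lower in neither comparison, Cdc20 and Kif11 held a CHR match in these windows, and all 5 held a CCAAT match.

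Seed matches to the deleted microRNAs were found in 5 of the 60 mitotic genes. A match to the miR-144-3p seed (ATACTGT in the transcript, written as DNA) was in the longest annotated 3′ UTR of 3 of the 60 genes (Cenpf, Mad2l1 and Tpx2; 5.0%), against 13.8% of 11737 tested genes. A match to the miR-451a seed (AACGGTT) was in Ect2 and Ndc80 (3.33%), against 2.22%. The median 3′ UTR was 836 bases long among the 60 genes and 1356 among all, and the shares were not adjusted for length. All 5 genes with a match fell in Nrf2/miR-144/451-/- against Nrf2-/-, where 55 of the 60 genes fell.

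Per transcript length, in the authors' FPKM, the genes covered a wide range. Mki67 was the highest in all 4 groups, at 448 ± 71.2 FPKM in Nrf2/miR-144/451-/-, 413 ± 39.8 in miR-144/451-/-, 1080 ± 144 in Nrf2-/- and 875 ± 1.64 in wild type (SD, n = 3, 2, 3 and 2). Ccnb2 followed Mki67 in wild type at 250 ± 2.36 FPKM, and Nek2 was the lowest there. Some counts may include reads of other genes: a large share of the 31-mers of Cks2 (31.7%), Ccnb1 (27.8%), Cdc20 (26.7%), Kif20a (26.7%) and Mybl2 (21.1%) occur in another annotated gene, and exons of Ncapg, Cdc25c, Ccna2 and Prc1 overlap a gene on the opposite strand over 11.1% to 13.4% of their length.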

How the data were processed

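The authors deposited raw counts per Ensembl gene for the 10 libraries, and FPKM values for each library. The submitters' processing notes name the build mm9 and the tools HISAT2 2.1.0, TopHat2, Bowtie2 2.2.3 and CASAVA, with no role stated. The sources used here name no counting tool, annotation or strand setting. All 196970 compared deposited FPKM values lay within 0.1% of the count divided by 1 length per gene and the library total. Levels between genes use FPKM, and every fit uses the counts. Replicates differed by more than sampling noise.

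All 10 libraries entered 1 fit in edgeR 4.0.16 (R 4.3.3) with TMM factors, filterByExpr (14110 genes left) and a two-sided quasi-likelihood test with robust estimation, on 6 residual degrees of freedom. Adjusted p-values are Benjamini-Hochberg values over all tested genes, with a threshold of 0.05, and SE is the standard error of the log2 fold change. The fit was also run on simulated counts, drawn independently and with no effect of sex. That run does not bear on calls that depend on sex or on a single library. Symbols matched 99.6% of the IDs, through GENCODE M21 and gene names, and the exon overlaps, shared 31-mers and 3′ UTRs come from that annotation, which is of a later build than mm9. Promoters and microRNAs come from RefSeq's GRCm38.p6.

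The members, the lists and the tests were chosen with earlier results of these data known. Values by library are given for up to 3 genes per role with the smallest p in Nrf2/miR-144/451-/- against Nrf2-/-, for each gene that rose in any comparison and for each gene lower in neither cluster-loss comparison. Of each neighbouring list, up to 3 genes of the commoner direction and 2 of the other were named, by p. Alternatives were other scalings, no filter, DESeq2 1.42.0, a replicate block, globin genes removed, a term for sex, male libraries alone, 2 genotypes in the fit and each library left out.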

Additional observations from a re-analysis of the deposited data

Results flagged for a closer look

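Pttg1, which encodes securin, had log2 fold changes of opposite sign on loss of the miR-144/451 cluster, of which 1 passed the threshold. Without Nrf2 each Nrf2/miR-144/451-/- library (90.4 to 107 CPM) was below each Nrf2-/- library (172 to 219 CPM), a fall of -0.98 ± 0.20 SE (adjusted p = 0.00486). With Nrf2 each miR-144/451-/- library (62.3 and 114 CPM) was above each wild type library (41.8 and 49.9 CPM), and the log2 fold change of 0.94 ± 0.25 missed the threshold (adjusted p = 0.0562). In the second comparison both miR-144/451-/- libraries are male and both wild type libraries female, so genotype and sex cannot be told apart. The difference between the log2 fold changes, edgeR's interaction term, was -1.92 ± 0.32 and also missed the threshold (adjusted p = 0.0986). Pttg1 was singled out because all libraries of one comparison lay opposite to those of the other.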

How the results depend on the processing

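In Nrf2/miR-144/451-/- against Nrf2-/-, 54 to 56 of the 60 genes were lower under every alternative run. Nek2 became a call as higher in 6 of the 19, among them a term for sex, male libraries alone and DESeq2. In miR-144/451-/- against wild type, where both wild type libraries are female and both others male, the 30 genes lower became 0 with a term for sex and 4 with 2 genotypes in the fit, and 0 to 31 with a library left out. Pttg1 became a call as higher in 5 of the 18 alternatives for that comparison. The 45 lower in Nrf2/miR-144/451-/- against wild type became 22 with a term for sex, and 29 to 45 with a library left out. The term for sex is set by Nrf2/miR-144/451-/- alone, the only group with both sexes. The 1 gene called in Nrf2-/- against wild type became 0 with a term for sex, 2 with no filter on low counts and 0 to 1 with a library left out. In Nrf2/miR-144/451-/- against miR-144/451-/-, where none was called, no filter gave 2 and DESeq2 1. For the interaction, no scaling factors gave 1, no filter 2, DESeq2 1, and leaving out a library 0 to 1. With 2 libraries in a group, 1 library can decide a call, and the cause of each change was not tested. Over all tested genes, miR-144/451-/- against wild type had 653 calls, with 1254 for no filter, 429 for the replicate block, 1 for a term for sex, 152 for 2 genotypes, 1071 for DESeq2 and 40 to 691 with a library left out. Its split of 338 higher and 315 lower became 497 and 247 with no scaling factors, which moved the median of all tested genes to 0.15, -0.12, -0.24 and -0.11 in miR-144/451-/- against wild type, Nrf2-/- against wild type, Nrf2/miR-144/451-/- against miR-144/451-/- and Nrf2/miR-144/451-/- against wild type. Relative to those medians the 60 genes stood at -0.73, 0.27, -0.13 and -0.84. With no scaling factors the split in Nrf2/miR-144/451-/- against wild type, 1165 higher and 1263 lower, became 803 and 1433, and the small splits of 18 and 9, 7 and 2, and 4 and 5 in Nrf2-/- against wild type, Nrf2/miR-144/451-/- against miR-144/451-/- and the interaction became 14 and 11, 4 and 2, and 4 and 8. Nrf2-/- against wild type had 27 calls, with 716 for no filter, 12 for sex, 45 for 2 genotypes, 134 for DESeq2 and 11 to 32 with a library left out. Nrf2/miR-144/451-/- against miR-144/451-/- had 9, with 6 for no scaling factors, 743 for no filter, 4 for the replicate block, 2 for 2 genotypes, 175 for DESeq2 and 4 to 78 with a library left out. Nrf2/miR-144/451-/- against wild type had 2428, with 560 for sex and 775 to 2648 with a library left out. The interaction had 9, with 232 for no filter, 5 for the replicate block, 2 for sex, 24 for DESeq2 and 3 to 12 with a library left out.

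Deviations from group means cannot decide whether replicate numbers pair the libraries, because in a group of 2 they mirror each other. In 13 same-numbered pairs they correlated at -0.11 to 0.29, with 1 above 0.1, and 2 of 10 libraries correlated best with their own number. With the replicate block, 28 of the 60 genes were lower in miR-144/451-/- against wild type and 55 in Nrf2/miR-144/451-/- against Nrf2-/-. Among the genes given by library, signs turned in the cluster-loss comparisons for Cdc25b, Cdc20, Cenpm and Kif11, none of them called there. In the comparisons for loss of Nrf2, negative values among the 60 genes went to 11 with no scaling factors and 12 with a term for sex, against 4, in Nrf2-/- against wild type. In Nrf2/miR-144/451-/- against miR-144/451-/- they went to 57 with no scaling factors and 32 without Nrf2/miR-144/451-/- replicate 2, against 42. In miR-144/451-/- against wild type, Cdc25b became 0.10 with no scaling factors, 0.01 with no filter and -0.28 to 0.26 with a library left out, and with a term for sex Cdc20 became -0.01 and Cenpm 0.10. In Nrf2/miR-144/451-/- against Nrf2-/-, Cdc25b became 0.07 with a term for sex, 0.09 in male libraries and -0.30 to 0.12 with a library left out, and Kif11 became 0.00 with globin genes removed and in male libraries, and -0.11 to 0.15 with a library left out. Of the results for single genes under all alternatives, 926 kept direction and side of the threshold, 85 lost the call, 26 gained one and 15 changed sign.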
